A study of Mus musculus with 16 samples.

Results

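The 9 genes described here are markers of cellular senescence and of the secretory phenotype that goes with it, and were chosen by gene symbol from the 45777 genes of the deposited table. They are the cyclin-dependent kinase (CDK) inhibitors Cdkn2a, Cdkn2b and Cdkn1b, the nuclear lamina gene Lmnb1, the lysosomal enzyme gene Glb1, and the secreted factors Gdf15, Il6, Igfbp3 and Igfbp7. B16F10 cells, a mouse melanoma line, had been grafted into C57BL/6J mice (lean) or leptin-deficient C57BL/6J-ob/ob mice (obese) of 6 weeks of age, and the RNA of whole tumors was sequenced in 4 groups of 4 tumors. Lean and obese tumors were taken before therapy (pre), without ETS, or after 5 injections of the topoisomerase inhibitor etoposide (ETS) at 20 mg per kg. All 4 groups carry the same graft line. The sample titles mark the groups without ETS as ctrl, and the study's methods describe the sequenced tumors as pre- and post-chemotherapy. Neither a vehicle nor a collection time is stated for the groups without ETS in the sources used here. ETS therefore cannot be told apart from injection or from the time of collection. Likewise, obesity of the ob/ob host cannot be told apart from its lack of leptin. Nothing in the labels states that replicate tumors came from separate cultures of the line, so p values measure the spread between these tumors, which may in part be technical.

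Senescence is a lasting arrest of the cell cycle that follows DNA damage, telomere loss or oncogene activity. CDK inhibitors hold the retinoblastoma protein in its active state, lamin B1 is lost from the nucleus, lysosomal beta-galactosidase accumulates, and many senescent cells secrete cytokines, growth factor-binding proteins and proteases. None of these markers is specific to senescence, since proliferation, lysosome content and host cells in a tumor also set their levels.

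Total counts per tumor ranged from 47199949 to 61655287. Levels are given as CPM, the read count relative to library size, scaled by TMM, which sets the libraries to a common level over most genes, and differences as log2 fold changes ± SE, with n = 4 per group. Unless another test is named, adjusted p values come from edgeR's quasi-likelihood test with Benjamini-Hochberg adjustment over the 16209 genes that had a count above 0 in every tumor, and a gene was called at an adjusted p under 0.05. Of the 9 members, 6 were in that fit, whereas Cdkn2a, Cdkn2b and Il6 had a count of 0 in some tumor and were compared by exact permutation tests. The 8 melanocyte markers summed to between 11232 and 27913 CPM, so all 16 tumors expressed the genes of the labelled line. Before therapy they summed to 18968 to 24079 CPM in lean and 11588 to 15822 CPM in obese tumors. After ETS these ranges were 24160 to 27913 and 11232 to 26572 CPM. Of the 8 markers, 4 were called lower in obese than in lean tumors before therapy, against 12.9% of all tested genes. Other cell types were present as well. Markers of T and NK cells summed to 19.1 to 36.0 CPM in the lean tumors before therapy and to at most 1.76 CPM in any other tumor, and markers of skeletal muscle or keratinocytes exceeded 10 CPM in 5 tumors (lean pre 2 and 4, lean ETS 1 and 2, obese ETS 2). For the 6 tested members and the counts of the secretory list, calls that changed without these tumors are given with the results. Other genes and the exact tests were not examined without these 5 tumors.

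In lean tumors after ETS, Glb1 was higher, and Lmnb1, Cdkn1b and Igfbp7 were lower, than before therapy. In obese tumors after ETS, Glb1 and Igfbp7 were higher, and Lmnb1 and Cdkn1b were lower. Among the 6 tested members Igfbp7 alone was called in opposite directions in the hosts, and its ETS effect alone was called as different between them. Of the 6 tested members, 4 were called in lean tumors, 1 higher and 3 lower, against a background of 43.8% of all tested genes (21.0% higher, 22.8% lower). For the obese host 4 were called, 2 higher and 2 lower, against 40.2% (21.2% higher, 19.0% lower). The difference between the ETS effects was called for 1 member, higher in obese tumors, against 16.4% (10.1% higher, 6.35% lower). With 6 genes tested, these counts describe the members only. Without the 5 tumors with muscle or keratinocyte markers, a choice made after seeing the data, Lmnb1 alone was called in lean tumors (log2 fold change -0.65, adjusted p = 0.0223), with Glb1 at 0.59 (adjusted p = 0.109), in fits with 2 lean tumors per group.

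**Figure D1:**
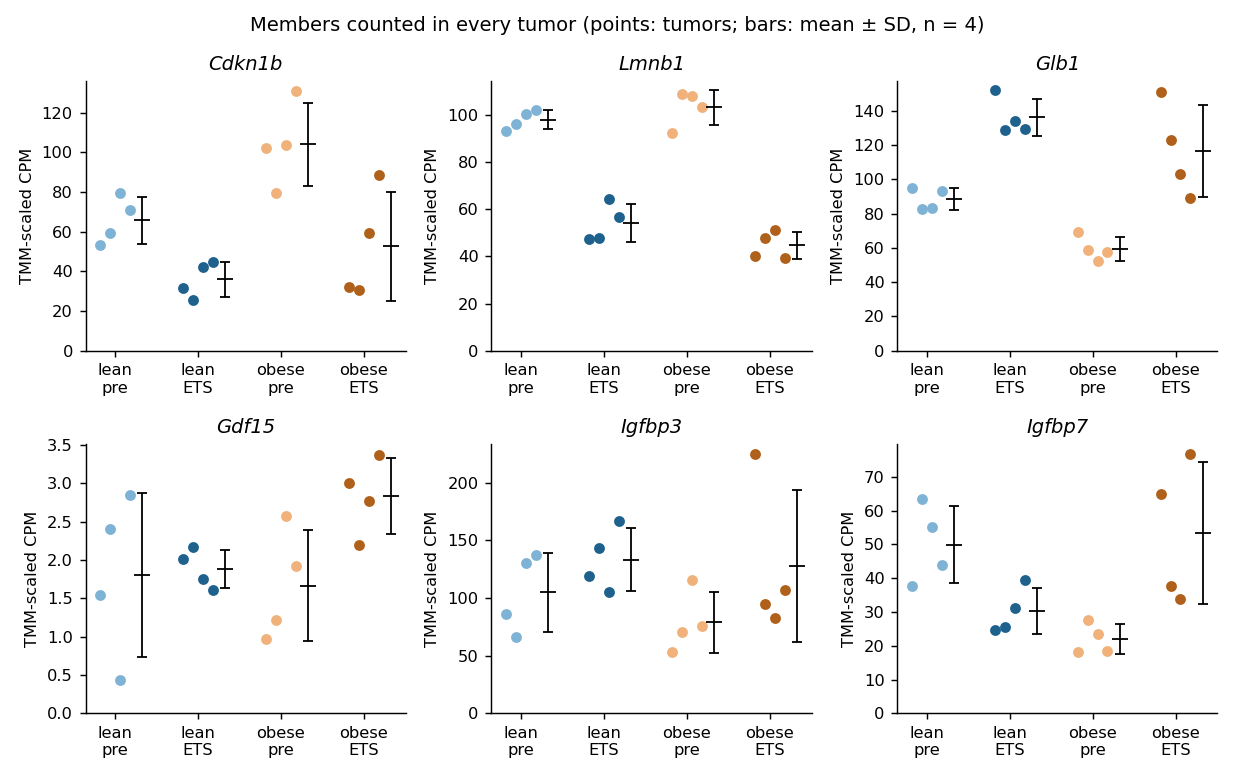
TMM-scaled CPM of the 6 members with a count above 0 in every tumor, by group. Each point is a tumor and the bars are the mean ± SD of 4 tumors. Lmnb1 was lower and Glb1 higher in every tumor after ETS than in every tumor of the same host before therapy, and Igfbp7 was higher in every obese tumor after ETS than in every obese tumor before therapy.

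**Figure D2:**
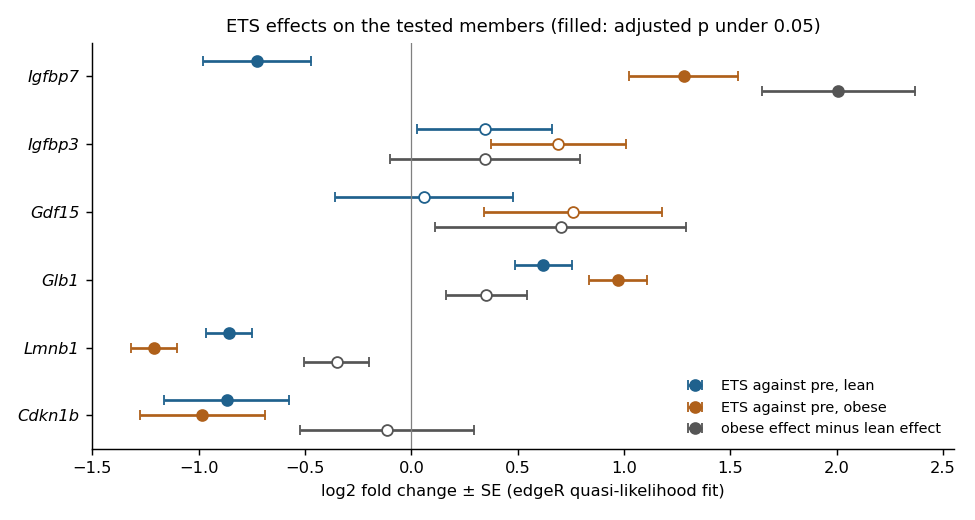
Log2 fold changes ± SE from the edgeR quasi-likelihood fit for the ETS effect in lean tumors, the ETS effect in obese tumors, and the obese effect minus the lean effect. Filled points have an adjusted p under 0.05. Igfbp7 lies at -0.73 in lean and at 1.28 in obese tumors, while the other called members lie on the same side of 0 in both hosts.

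The sequences before the start sites of the called members are shown so that the letters around the start sites of these genes can be compared. They are the 250 bases upstream of the RefSeq start in GRCm38.p6, 5′ to 3′ on the gene's strand, for Cdkn1b (chr6:134920151-134920400, plus strand), Glb1 (chr9:114400828-114401077, plus strand) and Igfbp7 (chr5:77408046-77408295, minus strand). Of the 9 members, 8 had an entry, and none is printed for Lmnb1. Capitals mark matches to the motifs named after the sequences.
Cdkn1b: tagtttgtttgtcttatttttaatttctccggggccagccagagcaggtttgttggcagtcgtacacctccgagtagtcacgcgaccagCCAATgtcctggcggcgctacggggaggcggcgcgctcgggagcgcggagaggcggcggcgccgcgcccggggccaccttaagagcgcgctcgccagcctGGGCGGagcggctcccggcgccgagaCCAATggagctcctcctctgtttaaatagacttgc
Glb1: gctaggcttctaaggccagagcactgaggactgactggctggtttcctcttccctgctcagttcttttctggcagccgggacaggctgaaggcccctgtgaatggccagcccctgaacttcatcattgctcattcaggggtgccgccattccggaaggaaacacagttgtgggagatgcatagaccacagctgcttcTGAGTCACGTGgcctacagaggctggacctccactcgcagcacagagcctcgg
Igfbp7: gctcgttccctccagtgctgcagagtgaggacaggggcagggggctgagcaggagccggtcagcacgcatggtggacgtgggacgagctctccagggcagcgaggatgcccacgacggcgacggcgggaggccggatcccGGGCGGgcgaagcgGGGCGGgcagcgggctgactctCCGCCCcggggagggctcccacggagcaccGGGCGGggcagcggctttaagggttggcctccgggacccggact
In Cdkn1b the capitals are CCAAT boxes (CCAAT) at positions -161 and -35 and a GC box (GGGCGG) at -61, counted back from the start. In Glb1 they are an AP-1 motif (TGANTCA) at -53 that overlaps an E-box (CACGTG) at -48. In Igfbp7 they are 4 GC boxes, at -110, -96, -74 and -44, of which the third lies on the opposite strand. Both strands were searched for 8 motifs, which also included TATAAA, the CRE core TGACGT, a kappaB motif and the E2F motif TTTNNCGC. Among 32851 promoters of 300 bases, which also take in 50 bases after the start, 37.4% held CCAAT, 35.7% GGGCGG, 7.81% TGANTCA and 7.15% CACGTG. The GC content was 64.4% for Cdkn1b, 58.0% for Glb1 and 74.0% for Igfbp7, against a median of 52.4% over all promoters. A match is a description of the letters and not evidence of a bound factor.

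Glb1 (chromosome 9, 114401078 to 114474379, plus strand) encodes lysosomal beta-galactosidase, the enzyme behind the staining that is used to detect senescent cells. In lean tumors it stood at 95.04, 82.6, 83.2 and 93.2 CPM before therapy and at 152, 129, 134 and 129 CPM after ETS. Obese tumors were at 69.3, 58.8, 52.1 and 57.5 CPM before therapy and at 151, 123, 103 and 89.1 CPM after ETS. On CPM every tumor after ETS was above every tumor before therapy in both hosts, whereas on TPM the lean groups overlapped. Groups did not overlap on CPM for 4 of the 9 members in lean tumors and for 3 in obese tumors. The background was 41.2% of the tested genes in the lean host and 34.2% in the obese host. The ETS effect on Glb1 was a 1.54-fold rise in lean tumors (log2 fold change 0.62 ± 0.14, adjusted p = 0.00216) and a 1.96-fold rise in obese tumors (0.97 ± 0.14, adjusted p = 0.00012). The difference between the effects was not called (0.35 ± 0.19, adjusted p = 0.23). The lean effect depended on the scaling, because log2(TPM + 1) gave 0.24 (limma, adjusted p = 0.0827), on a scale where the median of all genes moved to -0.28. On the same scale the difference was called, at 0.60 (adjusted p = 0.0188). Glb1 overlaps Tmppe on the same strand, so that reads of these genes may be shared. Melanocyte markers also differed between the groups, and their part in the Glb1 results was not tested. Most like Glb1 over the 16 tumors were BC029722 (Pearson r = 0.981 of log2 CPM), Dtna (r = 0.979) and Laptm4b (r = 0.976).

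Glb1 works in a complex with the protective protein cathepsin A (Ctsa) and the neuraminidase Neu1. Of the 4 tested genes among 6 of this complex and its relatives, 3 were called in each host and all were higher after ETS. Of all tested genes, 21.0% were called higher in the lean host and 21.2% in the obese host. Neu1 was higher in lean tumors (log2 fold change 0.59 ± 0.10, adjusted p = 0.00029). Ctsa was higher after ETS in both hosts, lean (0.39 ± 0.15, adjusted p = 0.0439) and obese (0.54 ± 0.15, adjusted p = 0.0104). The related Glb1l was higher in obese tumors (0.86 ± 0.24, adjusted p = 0.0123), and Neu1 was not called there (0.18 ± 0.10, adjusted p = 0.16). The 4 genes had a median of 0.49 in the lean host and 0.70 in the obese host, beside -0.01 and 0.01 over all tested genes. On log2(TPM + 1), 1 gene was called higher in lean and 3 in obese tumors. On that scale 15.7% of the 8632 genes called in lean tumors were higher, and 43.6% of the 5905 called in obese tumors.

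Lmnb1 encodes lamin B1, a filament protein of the inner nuclear envelope whose transcript falls in senescent cells and also in cells that leave the cycle. In lean tumors it stood at 93.2, 96.1, 101 and 102 CPM before therapy and at 47.6, 47.7, 64.2 and 56.7 CPM after ETS. The obese host gave 92.4, 109, 108 and 103 CPM before therapy and at 40.1, 47.7, 51.3 and 39.5 CPM after ETS. No tumor after ETS reached the lowest tumor before therapy in either host. Lmnb1 fell to 0.552 of its level in lean tumors (log2 fold change -0.86 ± 0.11, adjusted p = 3.68e-05) and to 0.433 in obese tumors (-1.21 ± 0.11, adjusted p = 7.57e-06). The call held in all 26 alternative fits for each host, the omission of any tumor included. The difference between the effects was -0.35 ± 0.15 and did not pass the threshold (edgeR adjusted p = 0.13).

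Of 10 nuclear lamina genes tested, Lmnb1 among them, 5 fell in lean tumors and none rose, against 22.8% and 21.0% of all tested genes. In obese tumors 6 fell and 1 rose, against 19.0% and 21.2%. Besides Lmnb1 the falls in both hosts were in Lbr (lamin B receptor), Tmpo (a lamina-associated protein), Lmnb2 (the other B-type lamin) and Banf1 (a chromatin-binding partner of the lamina). Lbr fell by 1.37 ± 0.14 on the log2 scale in lean tumors (adjusted p = 8.5e-06) and by 1.21 ± 0.14 in obese tumors (adjusted p = 3.88e-05). Lmna, the A-type lamin gene, was higher in obese tumors after ETS (0.47 ± 0.13, adjusted p = 0.0089) and not called in lean tumors (0.18 ± 0.13, adjusted p = 0.247). It was chosen for mention after its values were seen. On log2(TPM + 1), 9 genes fell in lean tumors, and 6 fell and 1 rose in obese tumors. Of all genes called on that scale, 15.7% were higher in lean tumors and 43.6% in obese tumors.

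All 11 proliferation genes fell in both hosts, against 22.8% of all tested genes in the lean and 19.0% in the obese host. These 11 genes had a median of -0.72 for the lean and -0.92 for the obese host, and all fell on log2(TPM + 1) as well. Their summed level was 2557 to 2829 CPM in lean tumors before therapy, 1377 to 1554 CPM in lean tumors after ETS, 2254 to 2550 CPM in obese tumors before therapy and 999 to 1412 CPM in obese tumors after ETS. Mki67, whose protein marks cycling cells, fell by 1.62 ± 0.31 on the log2 scale in lean tumors (adjusted p = 0.00085) and by 1.70 ± 0.31 in obese tumors (adjusted p = 0.00076). The genes whose pattern over the 16 tumors was most like that of Lmnb1 were Ccna2 (cyclin A2, Pearson r = 0.989 of log2 CPM), Ska1 (a kinetochore protein, r = 0.989) and the lamina gene Tmpo (r = 0.989). These values rest on libraries that fall into 4 groups and are given as a description. How much of the fall of Lmnb1 goes with the fall of proliferation was not tested.

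Cdkn1b (chromosome 6, 134920401 to 134925525, plus strand) encodes p27, an inhibitor of the cyclin E and cyclin A kinases that keeps resting cells out of the cycle. In lean tumors it stood at 53.2, 59.1, 79.5 and 70.8 CPM before therapy and at 31.6, 25.5, 42.0 and 44.7 CPM after ETS. In obese tumors it stood at 102, 79.6, 104 and 131 CPM before therapy and at 32.2, 30.4, 59.1 and 88.7 CPM after ETS. The lean groups did not overlap, whereas obese tumor 4 after ETS lay above the lowest obese tumor before therapy. Cdkn1b fell to 0.548 of its level in lean tumors (log2 fold change -0.87 ± 0.29, adjusted p = 0.0253) and to 0.506 in obese tumors (-0.98 ± 0.29, adjusted p = 0.0153), and the difference was not called (-0.11 ± 0.41, adjusted p = 0.89). The lean call was lost without lean pre 3 (adjusted p = 0.0706), lean pre 4 (0.0545), lean ETS 1 (0.073) or lean ETS 2 (0.0889), and the obese call without obese ETS 1 (0.0604) or obese ETS 2 (0.0533). Without the 5 tumors with muscle or keratinocyte markers neither was called (-0.59, adjusted p = 0.356 in lean tumors, and -0.78, adjusted p = 0.0723 in obese tumors).

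A measure of library composition moved with Cdkn1b. The mitochondrially encoded COX1, the most abundant gene in every tumor, took 1.48 to 2.36% of counts in lean tumors before therapy and 3.94 to 6.24% after ETS. Among obese tumors it took 1.68 to 2.104% before therapy and 4.59, 4.27, 2.47 and 1.85% in tumors 1 to 4 after ETS. The obese tumors after ETS with the highest COX1 share, 1 and 2, were those with the lowest Cdkn1b, and tumor 4, with a COX1 share inside the range before therapy, had the highest. The part of library composition in the fall of Cdkn1b was not tested. Among all genes, those most like Cdkn1b over the 16 tumors were Braf (r = 0.985), Setd5 (r = 0.976) and Cep170 (r = 0.973), while Glb1 ran the opposite way (r = -0.90).

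**Figure D3:**
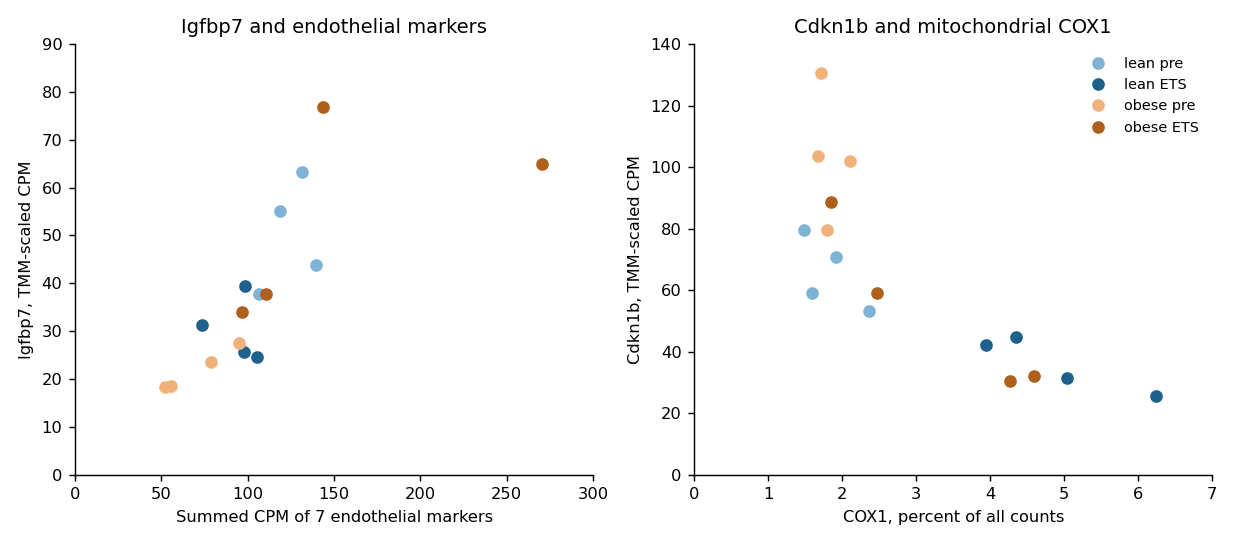
Left, TMM-scaled CPM of Igfbp7 against the summed CPM of 7 endothelial markers, and right, TMM-scaled CPM of Cdkn1b against the percent of all counts taken by mitochondrial COX1, with a point per tumor coloured by group. The obese pre tumors 1 and 4 are lowest in both Igfbp7 and endothelial markers, and the 6 tumors with a COX1 share of 3.94% or more are the 6 with the lowest Cdkn1b, at 25.5 to 44.7 CPM.

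The other CDK inhibitors moved in both directions. Cdkn1a, which encodes p21 and is a target of p53, rose from 111 ± 38.6 to 1210.4 ± 187 CPM (SD, n = 4) in lean tumors, a log2 fold change of 3.44 ± 0.23 (adjusted p = 3.44e-07). Among obese tumors it rose from 518 ± 61.7 to 1248 ± 73.4 CPM, a log2 fold change of 1.27 ± 0.21 (adjusted p = 0.00038). The smaller effect in obese tumors (difference -2.17 ± 0.29, adjusted p = 0.00018) went with a level before therapy that was higher than in lean tumors by 2.22 ± 0.22 on the log2 scale (adjusted p = 4.14e-06), and after ETS the hosts were not called as different (0.04 ± 0.21, adjusted p = 0.92). Cdkn2c (p18) fell in both hosts, lean (-0.83 ± 0.15, adjusted p = 0.00069) and obese (-0.63 ± 0.15, adjusted p = 0.0047). Cdkn2d (p19INK4d) fell in obese tumors (-0.89 ± 0.13, adjusted p = 0.00013), and its effects differed between hosts (-0.71 ± 0.18, adjusted p = 0.0138). Of the 5 tested inhibitors, 1 rose and 2 fell with ETS in the lean host, against 1 and 3 in the obese host. The shares of all tested genes that rose and fell were 21.0% and 22.8% in the lean and 21.2% and 19.0% in the obese host.

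Among 14 genes of the CDK4/6 and retinoblastoma axis, on which these inhibitors act, 3 rose and 3 fell with ETS in the lean host, against 4 and 4 in the obese host. These are 6 and 8 of 14 genes, beside 43.8% and 40.2% of all tested genes. Ccnd1 (cyclin D1) rose by a log2 fold change of 1.27 ± 0.12 with ETS in the lean host (adjusted p = 5.26e-06) and 1.64 ± 0.13 in the obese host (adjusted p = 4.78e-06). Ccnd2 (cyclin D2) rose by 1.24 ± 0.11 (adjusted p = 2.79e-06) and 1.03 ± 0.11 (adjusted p = 2.53e-05). Rbl1 (p107) fell by 1.25 ± 0.13 (adjusted p = 1.03e-05) and 0.998 ± 0.13 (adjusted p = 8.57e-05) on the log2 scale. Cdk6 fell in lean tumors (-1.05 ± 0.19, adjusted p = 0.00068), and its effect differed between hosts (1.61 ± 0.27, adjusted p = 0.00105).

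Cdkn2a and Cdkn2b are neighbours on the minus strand of chromosome 4 (89274473 to 89294619 and 89306289 to 89311032) and encode the CDK4/6 inhibitors p16 and p15, with p19ARF as the other product of Cdkn2a. Both were near the limit of detection. Cdkn2a had 11, 20, 14 and 9 counts in the lean pre tumors and 0, 0, 2 and 6 in the lean ETS tumors, while the obese pre tumors had 0, 9, 11 and 0 and the obese ETS tumors 12, 7, 0 and 14. In lean tumors every tumor after ETS was below every tumor before therapy, while the obese groups overlapped and each held tumors at 0. Markers of T and NK cells also summed to 19.1 to 36.0 CPM in lean tumors before therapy and to at most 1.56 CPM after ETS. The part of host cells in the counts of Cdkn2a and Cdkn2b was not tested. A count of 0 allows up to 3 counts, which is 0.0460 to 0.0618 CPM on the TMM scale.

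The mean of Cdkn2a in lean tumors was 0.212 ± 0.0699 CPM before therapy and 0.0351 ± 0.0494 CPM after ETS (SD, n = 4; exact permutation test, two-sided, p = 0.0286, the smallest that 4 against 4 tumors can give). In obese tumors the means were 0.0907 ± 0.105 and 0.151 ± 0.109 CPM (SD, n = 4; exact permutation p = 0.486). The ETS effects differed by 0.237 CPM (exact permutation of the host labels within treatment, p = 0.0184). That permutation assumes no host difference before therapy or after ETS, rather than equal ETS effects alone. With adjustment over the 15 exact tests of these 3 members, none passed, the lowest adjusted p being 0.143 by the exact permutation tests. Without lean pre 2 the lean groups still did not overlap and the difference was -0.145 CPM, against -0.177 CPM with all tumors (exact permutation p = 0.0571). In an edgeR fit with filterByExpr, which keeps these genes, the lean log2 fold change of Cdkn2a was -2.48 ± 1.18 (adjusted p = 0.103). The difference of effects in that edgeR fit was 3.16 ± 1.61 and was not called (adjusted p = 0.19).

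Cdkn2b had 27, 28, 36 and 16 counts in the lean pre tumors and 11, 13, 8 and 21 in the lean ETS tumors, while the obese pre tumors had 0, 24, 16 and 17 and the obese ETS tumors 67, 43, 15 and 23. All groups overlapped with their counterpart, and the highest counts were in obese tumors 1 and 2 after ETS. The means were 0.421 ± 0.125 and 0.241 ± 0.0963 CPM in lean tumors (SD, n = 4; exact permutation p = 0.0857) and 0.261 ± 0.197 and 0.684 ± 0.446 CPM in obese tumors (SD, n = 4; exact permutation p = 0.2). The effects differed by 0.603 CPM (the same exact permutation of host labels, p = 0.0265). Without lean pre 3, lean ETS 1, 2 or 3, or obese pre 1 the difference was 0.516 to 0.609 CPM with an exact permutation p of 0.0535 to 0.0731. Of the neighbouring genes, Mtap was at a mean of 199 CPM over all tumors and was not called in either host (0.09 in lean, -0.01 in obese tumors), while Dmrta1 had at most 8 counts in any tumor.

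**Figure D4:**
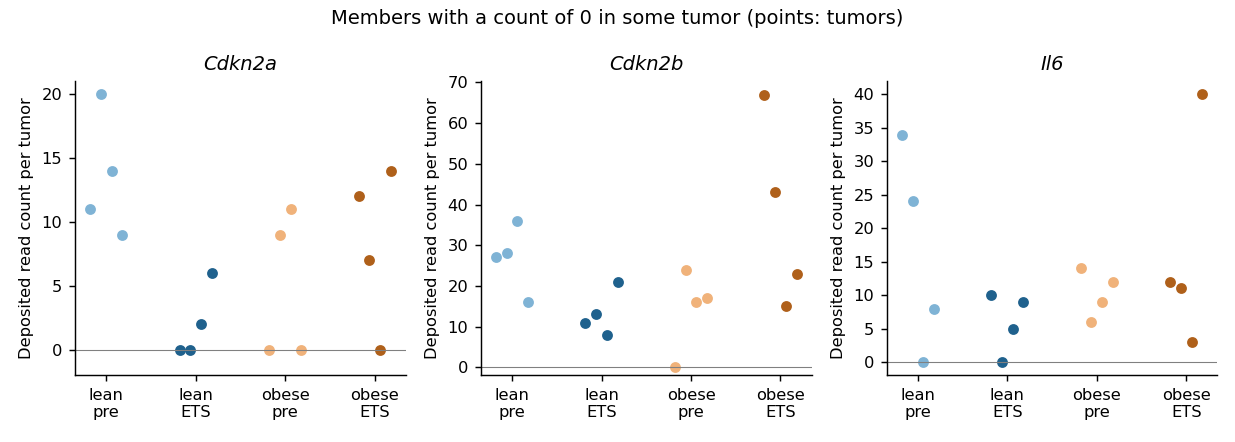
Deposited read counts of Cdkn2a, Cdkn2b and Il6 in each tumor by group, with a point per tumor. Cdkn2a stands at 9 to 20 counts in lean tumors before therapy and at 0 to 6 after ETS, and each of the 3 genes has a count of 0 in at least 1 tumor.

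Igfbp7 (chromosome 5, 77349240 to 77408045, minus strand) encodes a secreted IGF-binding protein-related factor that endothelial cells make in quantity and that has been linked to senescence of melanocytes. In lean tumors it stood at 37.7, 63.3, 55.1 and 43.8 CPM before therapy and at 24.6, 25.6, 31.3 and 39.4 CPM after ETS. Obese tumors were at 18.3, 27.6, 23.6 and 18.5 CPM before therapy and at 65.0, 37.7, 33.9 and 76.8 CPM after ETS. The obese groups did not overlap, and in lean tumors the highest tumor after ETS lay just above the lowest before therapy. The ETS effect was a fall to 0.604 of the level in lean tumors (log2 fold change -0.73 ± 0.25, adjusted p = 0.0297) and a 2.43-fold rise in obese tumors (1.28 ± 0.26, adjusted p = 0.00143). The difference between the effects was 2.01 ± 0.36 (adjusted p = 0.0015), and it was called in all 24 alternative fits that could give it. The lean call was lost without lean pre 2 (adjusted p = 0.094), lean pre 3 (0.0695), lean ETS 1 (0.0835) or lean ETS 2 (0.0842), and without the 5 tumors with muscle or keratinocyte markers it stood at -0.37 (adjusted p = 0.515).

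Markers of endothelial cells moved with Igfbp7. The 7 endothelial markers, none of them at 0 in any tumor, summed to 107 to 139.7 CPM in lean tumors before therapy and 73.5 to 105 CPM after ETS, and to 52.1 to 95.03 CPM in obese tumors before therapy and 96.6 to 270.4 CPM after ETS. Of the 7 endothelial markers, 5 were higher after ETS in obese tumors and 1 was lower in lean tumors. The background was 21.2% of all tested genes higher in obese and 22.8% lower in lean tumors. Emcn (endomucin), an endothelial marker, was among the 3 genes most like Igfbp7 over the 16 tumors (r = 0.917), between Slc31a2 (r = 0.919) and C1qtnf12 (r = 0.908). In whole tumors, fewer cells of a type and less RNA per cell cannot be told apart. The part of endothelial cells, macrophages or fibroblasts in the Igfbp7 result was not tested. Igfbp7 also overlaps Polr2b and Gm34648 on the opposite strand, and whether read strand entered the counting is not given in the sources used here.

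Igfbp3 (chromosome 11, 7206086 to 7215498, minus strand) encodes the main carrier of insulin-like growth factors in blood and is a target of p53. In lean tumors it stood at 85.9, 66.5, 131 and 137 CPM before therapy and at 119, 143, 105 and 167 CPM after ETS. The obese host gave 53.6, 71.0, 116 and 75.6 CPM before therapy and at 225, 95.1, 82.6 and 107 CPM after ETS. The groups overlapped in both hosts, and obese tumor 1 after ETS stood well above the other 3 of its group. No comparison called Igfbp3 (lean 0.34 ± 0.32, adjusted p = 0.39, obese 0.69 ± 0.32, adjusted p = 0.0952). The obese effect was called only without obese pre 3 (adjusted p = 0.0455), and on log2(TPM + 1) the lean value was -0.02 (limma, adjusted p = 0.97). The genes most like it over the 16 tumors were Gpr4 (r = 0.813), Dll4 (r = 0.808) and Cdh13 (r = 0.802).

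Among 14 genes of the IGF system, 9 were tested, of which 2 rose and 2 fell with ETS in the lean host, against 4 and 0 in the obese host. On log2(TPM + 1) these counts were 0 and 2 for the lean host, and 2 and 0 for the obese host. Of all genes called on that scale, 15.7% were higher in the lean host and 43.6% in the obese host. With TMM, 43.8% of all tested genes were called in the lean host and 40.2% in the obese host (21.2% higher). Igfals, the acid-labile subunit that joins Igfbp3 and IGF in the blood, rose by a log2 fold change of 1.98 ± 0.68 in the lean host (adjusted p = 0.0276) and 2.004 ± 0.67 in the obese host (adjusted p = 0.0279) at a mean level of 0.404 CPM. Igfbp4 rose in lean tumors (0.43 ± 0.11, adjusted p = 0.0062). Igf2r, the receptor that clears IGF2, rose in obese tumors (0.68 ± 0.19, adjusted p = 0.0125). Igfbp5 fell in lean tumors (-2.62 ± 0.90, adjusted p = 0.028), and both Igfbp5 and Igfbp6 had ETS effects that were higher in obese tumors, by 4.62 ± 1.26 (adjusted p = 0.0211) and 4.80 ± 1.34 (adjusted p = 0.0232). Igf2, Igfbp1, Igfbp2, Pappa and Pappa2 had a count of 0 in some tumor.

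Gdf15 (chromosome 8, 70629393 to 70632470, minus strand) encodes a stress-induced cytokine of the TGF-beta family that acts on the hindbrain receptor Gfral. In lean tumors it stood at 1.54, 2.41, 0.432 and 2.85 CPM before therapy and at 2.01, 2.17, 1.75 and 1.61 CPM after ETS. In obese tumors it stood at 0.969, 1.21, 2.57 and 1.92 CPM before therapy and at 3.001, 2.20, 2.77 and 3.37 CPM after ETS. The groups overlapped in both hosts, and lean pre 3 was the lowest of all 16 tumors. Gdf15 was not called in lean tumors (0.06 ± 0.42, adjusted p = 0.92), in obese tumors (0.76 ± 0.42, adjusted p = 0.16) or for the difference (0.70 ± 0.59, adjusted p = 0.46). The obese effect passed the threshold without lean pre 3, a tumor that enters the fit through the shared estimate of the spread (adjusted p = 0.0485). Gfral had a count of 0 in all 16 tumors, and its co-receptor Ret ranged from 0 to 75 counts. The genes most like Gdf15 were Cdc42se1 (r = 0.824), Spry4 (r = 0.820) and 1700017B05Rik (r = 0.775).

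Il6 (chromosome 5, 30013114 to 30019975, plus strand), the cytokine most often used to mark the secretory phenotype, was close to the limit of detection in every group. It had 34, 24, 0 and 8 counts in the lean pre tumors and 10, 0, 5 and 9 in the lean ETS tumors, while the obese pre tumors had 14, 6, 9 and 12 and the obese ETS tumors 12, 11, 3 and 40. All groups overlapped. The means were 0.264 ± 0.251 and 0.106 ± 0.0801 CPM in lean tumors (SD, n = 4; exact permutation p = 0.343) and 0.192 ± 0.0747 and 0.297 ± 0.280 CPM in obese tumors (SD, n = 4; exact permutation p = 0.629). The highest tumor, obese ETS 4, set the sign of the obese difference, which was -0.0289 CPM without it. Summed over the tumors of a group, Il6 had 66 counts in lean pre and 24 in lean ETS tumors (0.213 to 0.350 and 0.0652 to 0.151 CPM of raw totals, exact 95% Poisson intervals of counting error only). These intervals leave out the spread between tumors, on which the exact test rests. The part of counting error in that spread was not tested. Of the 15 exact tests of Cdkn2a, Cdkn2b and Il6, 3 had an unadjusted p under 0.05, and 6 did without obese ETS 3.

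Il6 acts with related cytokines on receptors that share the subunit Il6st (gp130) and signals through Stat3 to Socs3. Of 14 genes of this family 12 were tested, of which 4 rose and 4 fell in lean tumors, while 8 rose and none fell in obese tumors. The counts on log2(TPM + 1) were 2 and 5 for the lean host, and 4 and 0 for the obese host. Of all genes called on that scale, 15.7% were higher in the lean host and 43.6% in the obese host. With TMM, 43.8% of all tested genes were called in lean tumors and 40.2% in obese tumors (21.2% higher). Lif rose in both hosts, from 1.15 ± 0.617 to 4.28 ± 1.05 CPM in lean tumors (log2 fold change 1.90 ± 0.51, adjusted p = 0.0082) and from 1.79 ± 1.09 to 13.2 ± 7.92 CPM in obese tumors (2.89 ± 0.52, adjusted p = 0.00074; SD, n = 4). Osmr, the oncostatin M receptor, rose in both hosts, obese (1.74 ± 0.23, adjusted p = 8.31e-05) and lean (0.85 ± 0.23, adjusted p = 0.0074), and the difference was not called (adjusted p = 0.068). Il6ra, the receptor of Il6, fell in lean tumors (-2.60 ± 0.49, adjusted p = 0.00078) and rose in obese tumors (1.93 ± 0.48, adjusted p = 0.0058), a difference of 4.53 ± 0.69 (adjusted p = 0.00045). Clcf1 (a cytokine of the family), Lifr (the LIF receptor) and Socs3 also had effects that were higher in obese than in lean tumors, by 4.17 ± 0.81 (adjusted p = 0.00257), 1.88 ± 0.61 (adjusted p = 0.0466) and 1.78 ± 0.33 (adjusted p = 0.00204).

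The wider secretory phenotype was described with 72 cytokines, growth factors, proteases and their inhibitors, 4 of them members, of which 51 were tested. In lean tumors 6 rose and 15 fell after ETS (median log2 fold change -0.72), whereas in obese tumors 36 rose and none fell (median 1.48). The medians over all tested genes were -0.01 and 0.01, and 43.8% and 40.2% of tested genes were called. The ETS effects differed for 31 of the 51 genes, of which 30 were higher in obese tumors, against 16.4% of tested genes. The counts on log2(TPM + 1) were 1 and 22 for the lean host, and 27 and 1 for the obese host. Among all genes, that scale called 8632 in lean tumors, 15.7% of them higher, and 5905 in obese tumors, 43.6% of them higher. The median of all genes in lean tumors was -0.28 there. Falls thus prevailed among all called genes in lean tumors on that scale, not in this list alone. Without the 5 tumors with muscle or keratinocyte markers, 8 were called in lean tumors (1 higher, 7 lower), 33 in obese tumors (32 higher, 1 lower) and 17 for the difference, all higher in obese tumors. The remaining 21 genes had a count of 0 in some tumor, among them Il1a, Il1b, Tnf, Csf2 and Cxcl1.

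The largest falls in lean tumors, by the rule used for naming, were in the chemokines Ccl4 (-4.10 ± 0.68, adjusted p = 0.00029) and Ccl3 (-3.35 ± 0.78, adjusted p = 0.0034), followed by Igfbp5, the adhesion molecule Icam1 (-2.61 ± 0.47, adjusted p = 0.00056) and the TNF receptor Tnfrsf1b (-2.37 ± 0.55, adjusted p = 0.0033). The largest rise was in Tnfrsf11b (osteoprotegerin), at 2.58 ± 0.43 (adjusted p = 0.0003), followed by Spp1 (osteopontin), Timp2, Il18 and Mif at 0.83, 0.70, 0.63 and 0.59. Tnfrsf11b was higher in obese tumors after ETS too (2.52 ± 0.43, adjusted p = 0.00045). In obese tumors the largest rises were in the matrix metalloproteinases Mmp3 (3.96 ± 1.31, adjusted p = 0.0262) and Mmp2 (3.08 ± 0.56, adjusted p = 0.00072), the growth factor receptor Egfr (3.18 ± 0.97, adjusted p = 0.017) and the chemokines Ccl8 (3.18 ± 0.97, adjusted p = 0.017) and Cxcl12 (3.10 ± 0.84, adjusted p = 0.0093). The effects differed most in Ccl4 (5.39 ± 0.91, adjusted p = 0.00103), Egfr (5.25 ± 1.35, adjusted p = 0.0147) and Ccl8 (4.95 ± 1.32, adjusted p = 0.0185). Mif, at -0.58 ± 0.18 (adjusted p = 0.0384), was the gene with the larger effect in lean tumors.

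Host cell markers moved with this list. The 8 macrophage markers summed to 338 to 1095 CPM in lean tumors before therapy, 50.5 to 351 CPM in lean tumors after ETS, 39.4 to 225 CPM in obese tumors before therapy and 291 to 890.0 CPM in obese tumors after ETS. The 7 fibroblast markers summed to 530.0 to 2183, 96.9 to 598, 95.2 to 603 and 609.7 to 5676 CPM in the same order. No macrophage or fibroblast marker was at 0 in any tumor. In lean tumors 6 of 8 macrophage and 4 of 7 fibroblast markers fell, and in obese tumors 6 of 8 and 7 of 7 rose. The background was 22.8% of all tested genes lower in lean and 21.2% higher in obese tumors. The part of these cells in the counts of the secretory list was not tested.

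**Figure D5:**
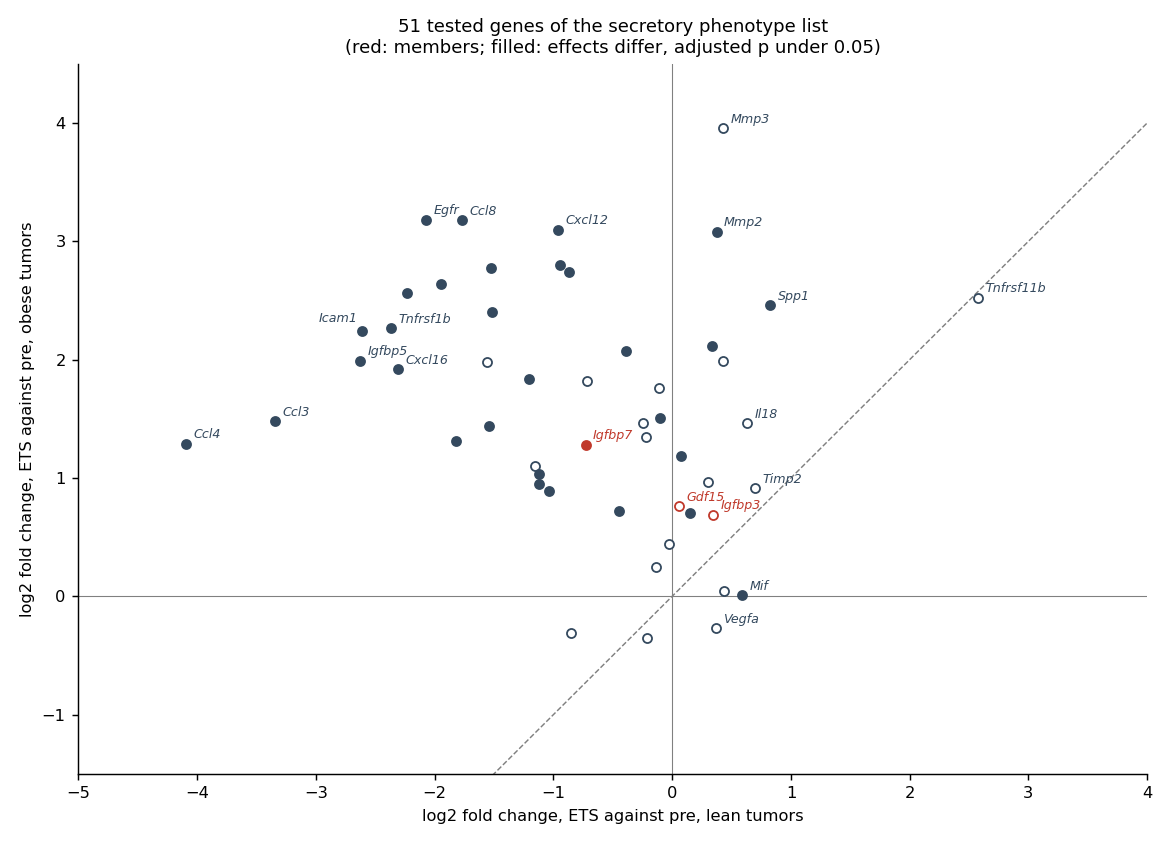
Log2 fold change after ETS in lean tumors (horizontal axis) and obese tumors (vertical axis) for the 51 tested genes of the secretory phenotype list, with members in red and filled points for genes whose effects differed (adjusted p under 0.05). The dashed line marks equal effects. Most points lie above 0 on the vertical axis, and Tnfrsf11b lies near the dashed line at 2.58 and 2.52.

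Before therapy, obese tumors differed from lean tumors in 2 of the 6 tested members, both lower, against a background of 26.4% (13.5% higher, 12.9% lower), and 3 of the 9 members did not overlap between hosts, against 30.4%. Glb1 was at 0.671 of the lean level (log2 fold change -0.57 ± 0.14, adjusted p = 0.0057) and Igfbp7 at 0.440 (-1.19 ± 0.26, adjusted p = 0.0032), each with every obese tumor below every lean tumor. On CPM, Cdkn1b was higher in every obese than in any lean tumor (lowest obese 79.6 CPM, highest lean 79.5 CPM). Its groups overlapped on TPM, and it was not called (0.66 ± 0.29, adjusted p = 0.107). It was called with sample weights (limma-voom, adjusted p = 0.0447) and with only these groups in the edgeR fit (0.0194). Lmnb1 was not called between hosts (0.08 ± 0.11, adjusted p = 0.65). Without lean pre 2 and 4, which held muscle transcripts, and the 3 such tumors after ETS, Igfbp7 was called (-1.09, adjusted p = 0.0349) and Glb1 was not (-0.59, adjusted p = 0.0656). Of the secretory list, 1 gene was higher in obese tumors (Vegfa, 1.68 ± 0.40, adjusted p = 0.0057) and 21 were lower, led by Cxcl16, Ccl4, Icam1, Tnfrsf1b and Ccl3 at -3.71 to -2.97.

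After ETS, none of the 6 tested members was called between hosts by edgeR's quasi-likelihood test, against a background of 5.58% (3.28% higher, 2.30% lower), although 2 had an unadjusted p under 0.05. These were Igfbp7 (0.82 ± 0.25, adjusted p = 0.0666) and Lmnb1 (-0.28 ± 0.11, adjusted p = 0.126). Igfbp7 was called by DESeq2 (0.81, adjusted p = 0.0174) and by edgeR's exact test (0.82, adjusted p = 0.0253), and without obese ETS 2 (adjusted p = 0.039) or obese ETS 3 (0.0382). Gdf15 was higher in every obese tumor than in any lean tumor, the only member without overlap, against 13.2% of tested genes, and was not called (0.59 ± 0.42, adjusted p = 0.40). Glb1 and Cdkn1b, whose hosts did not overlap on CPM before therapy, were at -0.22 ± 0.13 (adjusted p = 0.32) and 0.55 ± 0.29 (adjusted p = 0.256). Of the secretory list, 8 genes were higher in obese tumors and 1 was lower. The largest of the 8 were Egfr (3.52 ± 0.98, adjusted p = 0.0488), Angptl4 (3.28 ± 0.57, adjusted p = 0.0094) and Ptges (2.86 ± 0.76, adjusted p = 0.0415), and Il18 was the lower gene (-0.87 ± 0.22, adjusted p = 0.0338). This count of 9 fell to 3, 4, 2 and 2 without lean ETS 1, 2, 3 and 4, to 2 without obese ETS 4 and to 0 without the 5 tumors with muscle or keratinocyte markers, and rose to 15 without obese ETS 2. The comparisons between hosts use the same tumors as the ETS comparisons and are not independent of them.

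Per length, in the TPM values of the deposited table, which correct for transcript length, the group means of the members fell into 3 levels. Igfbp7, Igfbp3, Glb1, Lmnb1 and Cdkn1b had group means of 25.3 to 96.9 TPM, Gdf15 of 2.06 to 3.43 TPM, and Cdkn2a, Cdkn2b and Il6 of 0.0648 to 0.850 TPM. Among the 5 most abundant the order changed with the group. Igfbp7 (96.9 TPM) and Igfbp3 (92.7 TPM) led in lean tumors before therapy, and Glb1 (94.9 TPM) led in lean tumors after ETS. In obese tumors Cdkn1b (84.6 TPM) led before therapy, and Igfbp3 (91.6 TPM), Glb1 (88.7 TPM) and Igfbp7 (87.5 TPM) led after ETS. Neighbours in this order overlapped in their tumors, except that Igfbp3 was above Igfbp7 in all lean tumors after ETS, that Gdf15 was below the 5 most abundant members in every tumor, and that it was above Cdkn2b in every group other than lean tumors before therapy. On this scale the share of all called genes that rose after ETS was 15.7% in lean tumors, against 48.0% with TMM, and among genes whose effects differed the share that was higher in obese tumors was 90.8% against 61.3%. Between hosts the shares higher in obese tumors were 29.0% against 51.0% before therapy and 83.8% against 58.7% after ETS. Among members, 3 were called lower and none higher in lean tumors on log2(TPM + 1), and 2 were called lower and 2 higher in obese tumors.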

How the data were processed

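Tumor RNA was extracted with Trizol and sequenced from TruSeq stranded mRNA libraries. Per the study's methods and the submitters' processing notes, reads were demultiplexed with bcl2fastq 2.20.0, trimmed with Trimmomatic, aligned to mm10 with HISAT2 2.1.0 and assembled with StringTie 2.1.3b. The authors deposited for each of 16 tumors the read count, FPKM and TPM of 45777 genes. The deposited counts were tested as they were, the deposited TPM values served as an alternative scale, and the 16 columns of FPKM were not used. Whether counting used the strand is not given in the sources used here. Gene IDs of 45679 genes matched the GRCm38.p6 RefSeq table.

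The 29568 genes with a count of 0 in some tumor were left out of the fit, after the study's methods, and the other 16209 were fitted over all 4 groups with edgeR's quasi-likelihood test (edgeR 4.0.16, limma 3.58.1, R 4.3.3; TMM scaling; common coefficient of variation 0.233; Benjamini-Hochberg threshold 0.05). Excluded members were compared by exact two-sided permutation tests on CPM (scipy 1.17.1, pandas 2.3.3, Python 3.11.15), over all 4900 arrangements for the difference of effects. Limits from counts cover counting error only. DESeq2 1.42.0, limma-voom, edgeR's exact test, limma on log2(TPM + 1) and log2(TPM + 0.1), other filters, a replicate block and the omission of each tumor were alternatives. The code was tested on simulated counts. Within groups, r of log2 CPM was 0.970 to 0.992, and no pair of tumors agreed within sampling noise.

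The members and gene lists were chosen with earlier results of these data known. Besides the members, the genes named are the called genes of the small lists, at most 4 per list and comparison by size, the 5 largest rises and falls of the secretory list with a mean of at least 1 CPM, and the 3 genes most correlated with each tested member. Some genes were named outside this rule, among them Lmna and COX1, the most abundant gene in every tumor. Markers of neutrophils summed to at most 30.0 CPM and of adipocytes to between 7.64 and 257 CPM.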

Additional observations from a re-analysis of the deposited data

Results flagged for a closer look

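No member had a tumor that stood apart from the other 3 of its group, by the gap to the nearest tumor divided by the group's range against Dixon's critical value, in any of 36 groups.

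The ETS effects in obese and lean tumors differed by the test of the difference itself (edgeR quasi-likelihood, Benjamini-Hochberg adjusted) for 28 of the genes named, and values are obese minus lean on the log2 scale. Igfbp7 was the member among them, at 2.01, and the 3 genes most like it in pattern, Slc31a2, Emcn and C1qtnf12, stood at 1.41, 1.55 and 2.47. Of the CDK inhibitors and their axis, Cdkn1a stood at -2.17, Cdkn2d at -0.71, Cdk4 at -0.63 and Cdk6 at 1.61, and of the proliferation genes Cdk1 stood at -0.48. In the IL6 family the values were 4.53 for Il6ra, 4.17 for Clcf1, 1.88 for Lifr and 1.78 for Socs3, and in the IGF system 4.62 for Igfbp5 and 4.80 for Igfbp6. Among chemokines they were 5.39 for Ccl4, 4.95 for Ccl8, 4.83 for Ccl3, 4.23 for Cxcl16 and 4.05 for Cxcl12. The receptors and adhesion molecule Egfr, Icam1 and Tnfrsf1b stood at 5.25, 4.85 and 4.63. Ptges stood at 3.61, Mmp2 at 2.71, Serpine2 at 2.46, Spp1 at 1.63 and Mif at -0.58. Macrophage, fibroblast and endothelial markers moved in the same directions as most of these genes, and their part in the differences was not tested.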

How the results depend on the processing

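Of 798 alternative values of the members' log2 fold changes, 745 kept their direction and their side of the threshold. With log2(TPM + 1) and log2(TPM + 0.1) in limma, Gdf15 in lean tumors turned to -0.10 and -0.0423 (-0.0330 with limma-voom), Igfbp3 in lean tumors to -0.0155 and -0.0150, the Cdkn1b difference of effects to 0.0563 and 0.0641, and Lmnb1 before therapy to -0.0602 and -0.0609. None of these was called in either direction, and the cause was not tested. Under both TPM scales 2 members were called for the difference of effects. Between hosts after ETS, edgeR's exact test and DESeq2 called 1 member each and 16 and 19 genes of the secretory list, and a fit of only the groups compared called 1 gene of that list. Of the members with a count of 0 in some tumor, edgeR fits with filterByExpr or with no exclusion called 0 and 0 of 15 comparisons.

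Without the 5 tumors with muscle or keratinocyte markers, an alternative chosen after seeing the data that leaves fewer tumors per group, 1 member was called in lean tumors and 1 before therapy, the secretory list gave 8 calls in lean tumors, 17 for the difference, 13 before therapy and 0 after ETS, and Gdf15 before therapy turned to 0.75.

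Leaving out each tumor in turn, the members called ranged from 2 to 4 in lean tumors, 3 to 5 in obese tumors, 1 to 1 for the difference, 2 to 2 before therapy and 0 to 1 after ETS, and the exact tests with an unadjusted p under 0.05 from 2 to 6. The lean count was 2 without lean pre 3, lean ETS 1 or lean ETS 2. The secretory list ranged from 16 to 25, 26 to 39, 23 to 32, 18 to 29 and 2 to 15 in the same order of comparisons. Signs turned for Gdf15 in lean tumors (-0.27 to 0.37) and before therapy (-0.44 to 0.20), the differences of effects of Cdkn1b (-0.48 to 0.0889) and Igfbp3 (-0.0571 to 0.59), Igfbp3 after ETS (-0.49 to 0.0946), and Il6 in obese tumors (-0.0289 to 0.188 CPM) and before therapy (-0.160 to 0.0275 CPM).

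Replicate numbers are shared by the groups. Of 24 same-numbered pairs 11 had deviations correlated above 0.1 (range -0.112 to 0.453) and 10 correlated best with their own number. The labels do not say whether tumors with the same number were handled together, and this was not tested. A fit with the replicate block called 4, 4, 1, 3 and 0 members and 24, 37, 35, 23 and 13 genes of the secretory list, in lean tumors, obese tumors, the difference, before therapy and after ETS. It changed the call of Cdkn1b before therapy (0.65, adjusted p = 0.014) and of no other member. For Cdkn2a, Cdkn2b and Il6, the limit for a tumor at 0 counts is 0.0460 to 0.0618 CPM.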
